A study of Homo sapiens with 12 samples.

Results

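The RAB genes encode small GTPases that mark membranes and steer vesicles between them. All protein-coding genes whose symbol is RAB followed by a number and, at most, a letter and a digit were taken, which gave 63 of the 28100 genes in the table. Of several transcripts of a gene, the 1 with the highest sum over the libraries was used. The cells were MV3, an established human melanoma line, kept for 24 h in 12-well plates after 3 h in RPMI medium with 1% EV-depleted serum. Extracellular vesicles (EVs) at 1e10 particles per well came from M1, M0 or M2 macrophages, obtained by polarizing THP-1, a leukaemia line of human monocytes, over 48 h, and the control (Ctrl) received PBS. The groups M1 EV, M0 EV, M2 EV and Ctrl had 3 libraries each, 12 in all. The polarizing agents are not named in the labels. The labels number the replicates without saying that they were separate cultures or vesicle preparations, so the p-values below measure the spread between libraries, which may be technical.

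A RAB protein bound to GTP sits on its membrane and recruits effectors (tethers, motors and coat adaptors), and bound to GDP it is drawn back into the cytosol. Guanine nucleotide exchange factors (GEFs) switch it on and GTPase-activating proteins (GAPs) switch it off. RAB5 proteins mark early endosomes, RAB7A late endosomes, RAB11 proteins recycling endosomes and RAB1 proteins the path from the endoplasmic reticulum (ER) to the Golgi. RAB27A and RAB27B dock multivesicular endosomes and secretory granules at the plasma membrane and are known for the release of exosomes. In melanocytes RAB27A also holds melanosomes at the cell edge, and RAB32 and RAB38 bring pigment enzymes to them.

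The libraries held 9694843 to 14379738 counts assigned to genes. On the first principal component, which held 43.2% of the variance, the M1 EV libraries lay at 21.95 to 23.82 and the other 9 libraries at -9.86 to -6.02. Of 20 macrophage markers, 6 had no count in any library, TYROBP and CD163 among them, and PTPRC had 2 counts in all. The summed level of these 20 markers was 67.85 to 68.95 CPM (counts per 1e6 assigned counts, scaled by the trimmed mean of M-values, TMM) with M1 EV and 55.68 to 62.67 CPM in Ctrl, and nearly all of it was CD68, a lysosomal protein gene. CD68 averaged 66.9 ± 0.732 CPM with M1 EV and 56.7 ± 3.68 CPM in Ctrl (log2 fold change 0.24, adjusted p = 0.000244, edgeR's quasi-likelihood test). Of 10 melanocytic markers TYR, DCT and S100B had no count and SOX10, TYRP1, PMEL, MITF and MLANA had 2 to 135 counts in all, while PAX3 had 2331 and GPNMB 3949. GPNMB, a glycoprotein of melanosomes and lysosomes, averaged 22.2 ± 0.591 CPM with M1 EV and 33.7 ± 3.95 CPM in Ctrl (log2 fold change -0.61, adjusted p = 1.39e-08). PAX3, a transcription factor of the melanocyte lineage, averaged 19.6 ± 0.401 CPM with M1 EV and 16.7 ± 1.249 CPM in Ctrl (log2 fold change 0.23, adjusted p = 0.035). The 10 markers summed to 42.33 to 45.4 CPM with M1 EV and 48.6 to 58.18 CPM in Ctrl, and the part of these marker differences in the RAB results was not tested. These are bulk samples, in which fewer cells of a type and less RNA per cell cannot be told apart.

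Of the 63 RAB genes, 46 had enough counts to be tested, and the other 17 had at most 95 counts over the 12 libraries. RAB19, RAB39A, RAB3C, RAB44 and RAB9B had no whole count, where a count of 0 allows up to 3 counts over all libraries. The mean level of a tested member ran from 0.964 CPM for RAB39B to 356 CPM for RAB7A, with a median of 36.5 CPM. Summed over the family, RAB transcripts took 3192 to 3231 CPM with M1 EV, 3177 to 3217 CPM with M0 EV, 3188 to 3233 CPM with M2 EV and 3210.2 to 3223 CPM in Ctrl, so the ranges of the 4 groups overlapped. The 10 members with the most CPM held 57.6% of that sum.

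Per kilobase of transcript, the highest levels were those of RAB13 (202 CPM per kb), RAB34 (172) and RAB7A (159), followed by RAB1B (102) and RAB5C (90.9). RAB34, a GTPase of lysosome positioning and ciliogenesis, depends on the length used: its matched transcript of 730 bases is short, and with the longest matched transcript of 1766 bases its level was 71.1 CPM per kb and its rank fell to 5. RAB34 had 126, 121 and 126 CPM with M1 EV, against 123, 126 and 132 CPM in Ctrl. The 2 groups overlapped, and the difference was -0.04 ± 0.042 on the log2 scale (± standard error, SE) with an adjusted p of 0.549. RAB6C and RAB6D, close copies of RAB6A, had 16 and 14 counts over all libraries, against 17477 for RAB6A (how shared reads were counted is not given).

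**Figure D1:**
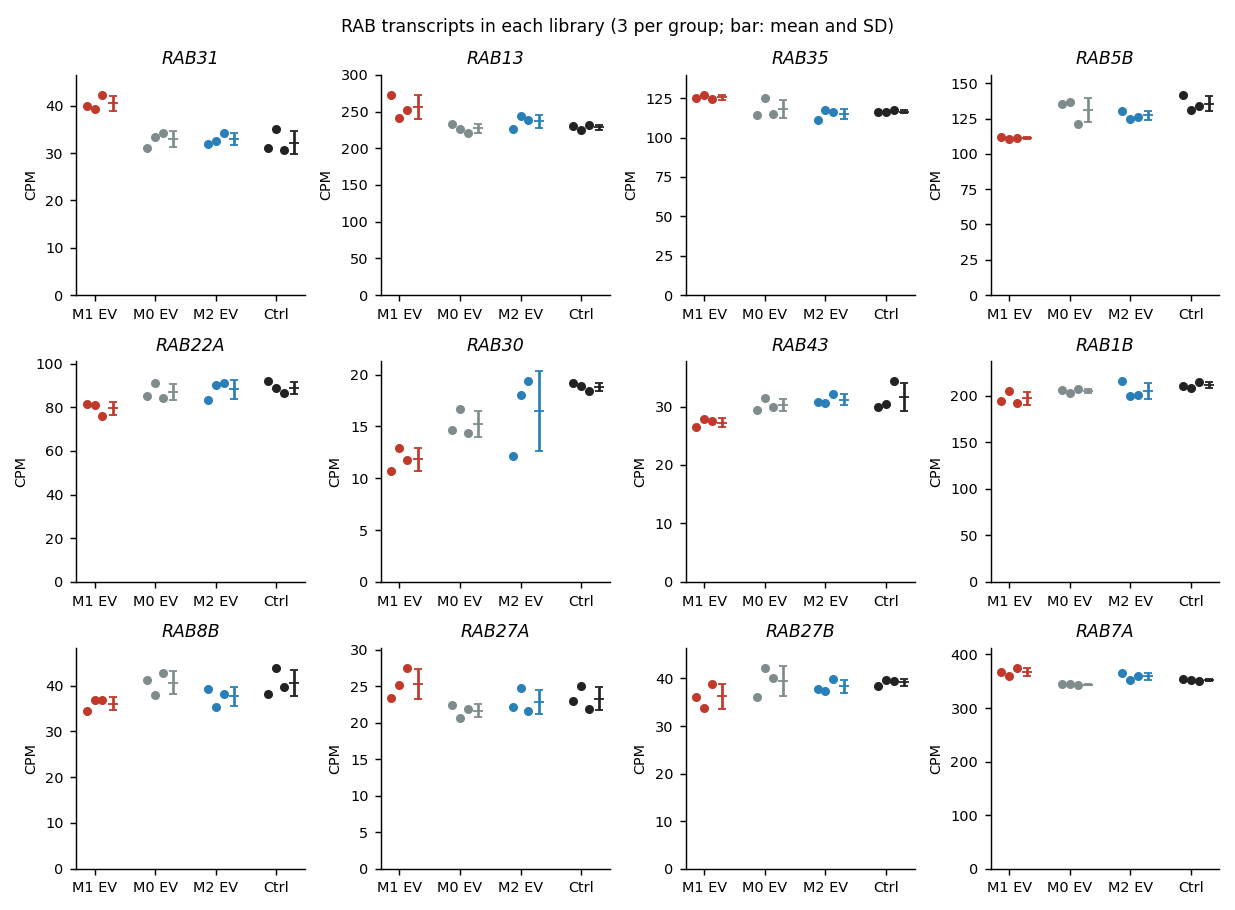
Level of 12 RAB transcripts in each library, in TMM-scaled CPM on axes that start at 0, for M1 EV, M0 EV, M2 EV and Ctrl. Points are libraries and bars the mean with its standard deviation (SD, n = 3); the M1 EV points of RAB31 (39.2 to 42.4 CPM) lie above all others and those of RAB5B (110.5 to 112 CPM) below all others.

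M1 EV against Ctrl compares melanoma cells given vesicles of M1 macrophages with cells given PBS. Here 9 of the 46 tested RAB genes changed, of which 3 rose (RAB31, RAB13 and RAB35) and 6 fell (RAB5B, RAB30, RAB22A, RAB43, RAB1B and RAB8B). That is 19.6% of the family, while 28.1% of all 13116 tested genes were called, 14.3% higher and 13.7% lower. The changes were small: the median absolute log2 fold change was 0.097 over the RAB genes and 0.118 over all tested genes, and the medians with sign were -0.03 and 0.00. The libraries of the 2 groups did not overlap for 15 RAB genes (7 above and 8 below Ctrl), against 39.6% of all tested genes. By site of action, 3 of 6 tested early endosomal members were called, 3 of 11 of recycling and surface delivery, and 3 of 13 of ER and Golgi traffic. Each member was placed at a single site, though some act at several, and these counts depend on that placing. RAB34 and RAB36, for example, were placed in ER and Golgi traffic. None of the 5 members of late endosomes and lysosomes, the 7 of regulated secretion and lysosome-related organelles, or the 4 others was called by edgeR's quasi-likelihood test, where 1, 1 and 0 had an unadjusted p below 0.05, and DESeq2 called 0 of them.

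**Figure D2:**
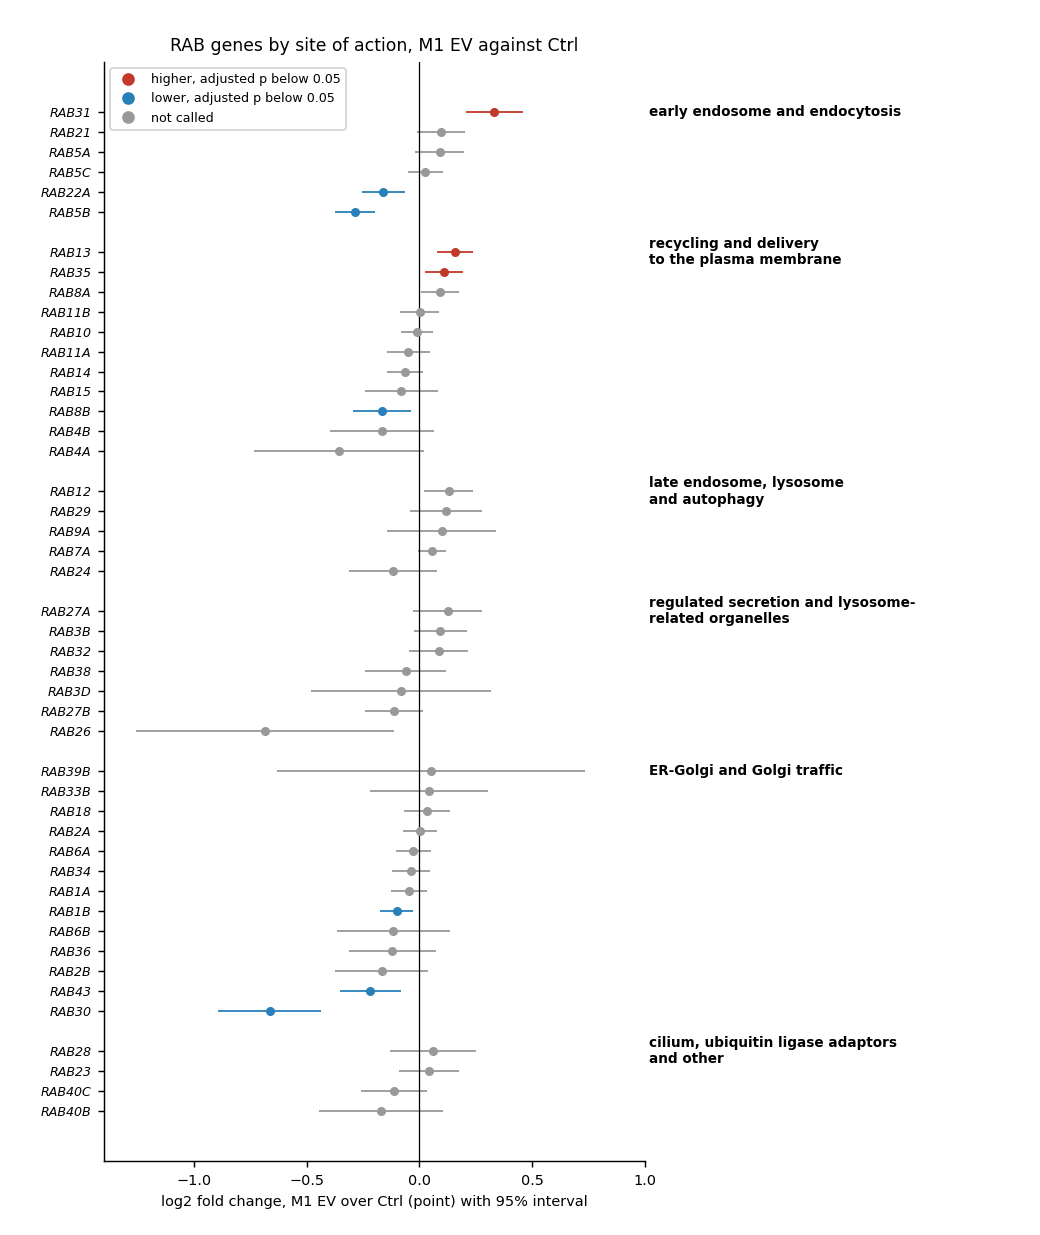
Log2 fold change, M1 EV over Ctrl, of the 46 tested RAB genes with 95% intervals, grouped by site of action. Red points were called higher (3 genes) and blue points lower (6 genes) at an adjusted p below 0.05; RAB31 is the highest at 0.33, and RAB30 at -0.66 is the lowest of the called genes.

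In the early endosome group, RAB31 rose and RAB5B and RAB22A fell. RAB31, a close relative of RAB22A that acts between the Golgi and early endosomes and in forming intraluminal vesicles, had 39.96, 39.2 and 42.4 CPM with M1 EV, against 30.99, 35.1 and 30.6 CPM in Ctrl. All M1 EV libraries were above all Ctrl libraries, and the log2 fold change was 0.33 ± 0.063 (adjusted p = 6.67e-05). RAB5B, 1 of the paralogs that drive fusion of early endosomes, had 112, 111 and 111 CPM with M1 EV, against 142, 131 and 134 CPM in Ctrl. The M1 EV libraries lay between 110.5 and 112 CPM and below every Ctrl library, with a log2 fold change of -0.29 ± 0.044 (adjusted p = 2e-06). RAB22A, which acts in recycling from early endosomes, had 81.6, 80.9 and 76.1 CPM with M1 EV, against 91.9, 88.8 and 86.3 CPM in Ctrl. They did not overlap (log2 fold change -0.16 ± 0.047, adjusted p = 0.00832), but the call was lost without Ctrl replicate 1 (adjusted p = 0.0588) or without M1 EV replicate 3 (0.0605). RAB5A, the best known early endosomal member, had 65.9, 68.9 and 74.1 CPM with M1 EV, against 68.97, 66.8 and 61.1 CPM in Ctrl. Those groups overlapped, and the difference was 0.09 ± 0.054 (95% interval -0.02 to 0.20, adjusted p = 0.235). It was 0.038 without Ctrl replicate 3 and 0.043 without M1 EV replicate 3. RAB5C differed by 0.03 ± 0.038 (adjusted p = 0.666). All 3 counted transcripts of RAB5B lay lower with M1 EV without overlap, but isoforms share reads.

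The promoters of the 2 early endosomal members with the smallest p, RAB31 and RAB5B, and of the Golgi member RAB30 are printed because these 3 genes had the smallest p among all RAB genes. Each line is the 250 bases before the gene's start, 5′ to 3′ on the gene's strand, from RefSeq on GRCh38.p14: RAB31 at chr18:9708051-9708300 (plus strand), RAB5B at chr12:55973699-55973948 (plus strand) and RAB30 at chr11:83071898-83072147 (minus strand). Capitals mark matches on either strand to the GC box GGGCGG, the CCAAT box CCAAT, the E-box CACGTG and the NF-kB consensus; none of the matches overlaps another.
RAB31: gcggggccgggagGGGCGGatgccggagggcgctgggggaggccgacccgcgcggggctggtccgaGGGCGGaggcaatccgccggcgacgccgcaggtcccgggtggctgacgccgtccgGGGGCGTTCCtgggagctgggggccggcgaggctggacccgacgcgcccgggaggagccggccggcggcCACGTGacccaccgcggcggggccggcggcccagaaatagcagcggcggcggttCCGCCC
RAB5B: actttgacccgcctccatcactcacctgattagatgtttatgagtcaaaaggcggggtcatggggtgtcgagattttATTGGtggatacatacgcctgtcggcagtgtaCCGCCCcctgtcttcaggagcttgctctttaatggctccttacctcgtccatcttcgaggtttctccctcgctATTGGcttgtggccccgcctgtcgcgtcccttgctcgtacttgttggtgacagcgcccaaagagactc
RAB30: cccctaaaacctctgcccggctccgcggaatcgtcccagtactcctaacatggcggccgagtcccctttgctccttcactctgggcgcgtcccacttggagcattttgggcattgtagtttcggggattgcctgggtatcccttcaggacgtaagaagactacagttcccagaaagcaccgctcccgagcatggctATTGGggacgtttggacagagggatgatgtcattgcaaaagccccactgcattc
The RAB31 promoter was 82.0% G and C, against a median of 62.4% over 15843 protein-coding promoters of the same table, and it held 3 GC boxes, 1 NF-kB consensus 129 bases before the start and 1 E-box 60 bases before it. The RAB5B and RAB30 promoters were 54.0% and 56.4% G and C. RAB5B held 1 GC box and 2 CCAAT boxes, and RAB30 held 1 CCAAT box. Among all of these promoters, 56.0% held a GC box, 34.5% a CCAAT box, 7.84% the E-box and 10.9% the NF-kB consensus. Of the 46 tested RAB genes 37 had a promoter in the table, and 89.2% of those held a GC box, 29.7% a CCAAT box, 13.5% the E-box and 8.11% the NF-kB consensus. Of the 9 called genes 8 held a GC box, 3 a CCAAT box (RAB5B, RAB30 and RAB8B) and 1 the NF-kB consensus. The RAB13 window lay inside the annotated gene and the RAB43 window partly overlapped its gene, so neither lay wholly before the gene's outermost start. A match is only a description of these letters in the window.

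In recycling and delivery to the plasma membrane, RAB13 and RAB35 rose and RAB8B fell. RAB13, which carries cargo to the cell surface and to junctions, had 273, 241 and 253 CPM with M1 EV, against 230.3, 224 and 231 CPM in Ctrl. Every M1 EV library was above every Ctrl library (log2 fold change 0.16 ± 0.039, adjusted p = 0.00177), and the value ran between 0.11 and 0.20 when single libraries were left out. Its counted transcript is a non-coding record, and both coding transcripts were also higher without overlap, but isoforms share reads, so this adds no separate evidence. RAB35, which acts in fast recycling and has been tied to exosome docking, had 125, 127 and 125 CPM with M1 EV, against 116, 116 and 117 CPM in Ctrl. The groups did not overlap and the log2 fold change was 0.11 ± 0.041 (adjusted p = 0.0415), but leaving out any 1 of the 6 libraries ended the call (adjusted p = 0.0553 to 0.112). The RAB35 call was also lost with DESeq2 (0.123), without the low-count filter (0.0666), in the 2-group fit (0.0595) and with summed transcripts (0.0584). RAB8B, which acts in traffic to the surface and the cilium, had 34.5, 36.8 and 36.9 CPM with M1 EV, against 38.2, 43.8 and 39.7 CPM in Ctrl. No library of either group crossed into the other (log2 fold change -0.17 ± 0.063, adjusted p = 0.0465). That call was lost without Ctrl replicate 2 (0.25) or 3 (0.0656) or without M1 EV replicate 1 (0.163), 2 (0.063) or 3 (0.0614). The RAB8B call was also lost with DESeq2 (0.199) and with summed transcripts (0.102). Its paralog RAB8A had 109, 108 and 111 CPM with M1 EV, against 105, 101.10 and 102 CPM in Ctrl, without overlap, at 0.09 ± 0.041 (adjusted p = 0.0953). RAB11A, the recycling endosome marker, had 74.8, 75.9 and 80.7 CPM with M1 EV, against 79.6, 78.7 and 81.1 CPM in Ctrl. The groups overlapped, and the difference was -0.05 ± 0.047 (95% interval -0.14 to 0.05, adjusted p = 0.476).

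In ER and Golgi traffic all 3 called members fell. RAB30, a Golgi GTPase, had the largest change of a called member: it had 10.7, 12.95 and 11.8 CPM with M1 EV, against 19.2, 18.9 and 18.4 CPM in Ctrl. The groups were well apart, with a log2 fold change of -0.66 ± 0.11 (adjusted p = 1.47e-05). All 4 of its counted transcripts were lower, but isoforms share reads, so this adds no separate evidence. RAB43, which acts in transport through the Golgi, had 26.4, 27.8 and 27.5 CPM with M1 EV, against 29.99, 30.5 and 34.3 CPM in Ctrl. The groups did not overlap (log2 fold change -0.22 ± 0.066, adjusted p = 0.0109), and the call was lost without Ctrl replicate 3 (adjusted p = 0.157) and with DESeq2 (0.106). Reads of RAB43 cannot be told apart from those of the read-through gene ISY1-RAB43, which spans it. RAB1B, which works between ER and Golgi, had 195, 205 and 192 CPM with M1 EV, against 211, 209 and 215 CPM in Ctrl. All M1 EV libraries were below all Ctrl libraries (log2 fold change -0.10 ± 0.037, adjusted p = 0.0361). The call was lost without Ctrl replicate 1 (0.0806) or 3 (0.132), without M1 EV replicate 1 (0.0982) or 3 (0.148), and with DESeq2 (0.0917). Its paralog RAB1A was not called, at -0.05 ± 0.04 (adjusted p = 0.438).

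The members grouped under late endosomes and lysosomes, or under regulated secretion and lysosome-related organelles, were not called in M1 EV against Ctrl. RAB31 and RAB35, which were called higher, stand in other groups, though they have been tied to intraluminal vesicles and to exosome docking. RAB7A, the most abundant member in CPM, had 368, 359 and 374 CPM with M1 EV, against 354, 353 and 351 CPM in Ctrl. The groups did not overlap, yet the difference was only 0.06 ± 0.031 (95% interval -0.01 to 0.12, adjusted p = 0.189). RAB12, which sends receptors from recycling to lysosomes, had 52.9, 50.7 and 54.1 CPM with M1 EV, against 45.6, 49.3 and 49.03 CPM in Ctrl, at 0.13 ± 0.053 (adjusted p = 0.0647); without M1 EV replicate 2 its adjusted p was 0.0476. RAB27A had 23.3, 25.2 and 27.5 CPM with M1 EV, against 22.99, 24.97 and 21.9 CPM in Ctrl. Its groups overlapped (difference 0.13 ± 0.076, 95% interval -0.03 to 0.28, adjusted p = 0.232), and the difference was 0.081 without Ctrl replicate 3 and 0.066 without M1 EV replicate 3. RAB27B had 36.1, 33.7 and 38.9 CPM with M1 EV, against 38.4, 39.7 and 39.4 CPM in Ctrl. Its groups overlapped too, with the opposite sign of difference (-0.11 ± 0.064, 95% interval -0.24 to 0.02, adjusted p = 0.196; -0.060 without M1 EV replicate 2). RAB26, a GTPase of secretory vesicles, was low, at 1.14, 1.09 and 1.37 CPM with M1 EV, against 1.60, 2.05 and 2.13 CPM in Ctrl. Its estimate was the lowest of the family (-0.69 ± 0.28) with a wide 95% interval of -1.26 to -0.11 (adjusted p = 0.0667). Of the melanosome members, RAB32 had 31.4, 28.2 and 29.02 CPM with M1 EV, against 27.6, 28.3 and 27.5 CPM in Ctrl (0.09 ± 0.065, adjusted p = 0.384; 0.040 without M1 EV replicate 1). RAB38 had 12.8, 14.4 and 13.7 CPM with M1 EV, against 14.4, 12.9 and 15.3 CPM in Ctrl (-0.06 ± 0.089, adjusted p = 0.702), and without Ctrl replicate 3 its difference was 0.00049. Both sets of groups overlapped.

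M0 EV and M2 EV against the same Ctrl libraries gave no called RAB gene. With M0 EV, 0 of 46 were called by edgeR's quasi-likelihood test, 2 had an unadjusted p below 0.05, and DESeq2 called 0; of all tested genes 0.0152% were called. With M2 EV the count was also 0, 3 had an unadjusted p below 0.05, and DESeq2 called 0; of all tested genes 0.0457% were called. Libraries of M0 EV and Ctrl did not overlap for 6 RAB genes and those of M2 EV and Ctrl for 4, against 10.2% and 11.7% of all tested genes. The smallest p with M0 EV was that of RAB30, at 14.7, 16.7 and 14.4 CPM with M0 EV against 19.2, 18.9 and 18.4 CPM in Ctrl. Those groups did not overlap, and the log2 fold change was -0.31 ± 0.1 (adjusted p = 0.713). The smallest p with M2 EV was that of RAB28, a GTPase of cilia, at 15.8, 15.7 and 18.1 CPM with M2 EV against 15.6, 13.2 and 14.4 CPM in Ctrl. Those groups did not overlap either (0.20 ± 0.087, adjusted p = 0.753). RAB3B, a GTPase of regulated exocytosis, had 82.9, 100.97 and 97.00 CPM with M0 EV against 84.6, 89.8 and 77.3 CPM in Ctrl. It was not called (0.16 ± 0.056, adjusted p = 0.747), but without M0 EV replicate 1, the library that differed most from its group, it was 0.24 higher (adjusted p = 0.00826). That fit rests on M0 EV replicates 2 and 3, the 2 most alike libraries of any group. It called 0.652% of all tested genes, against 0.0152% with every library.

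**Figure D3:**
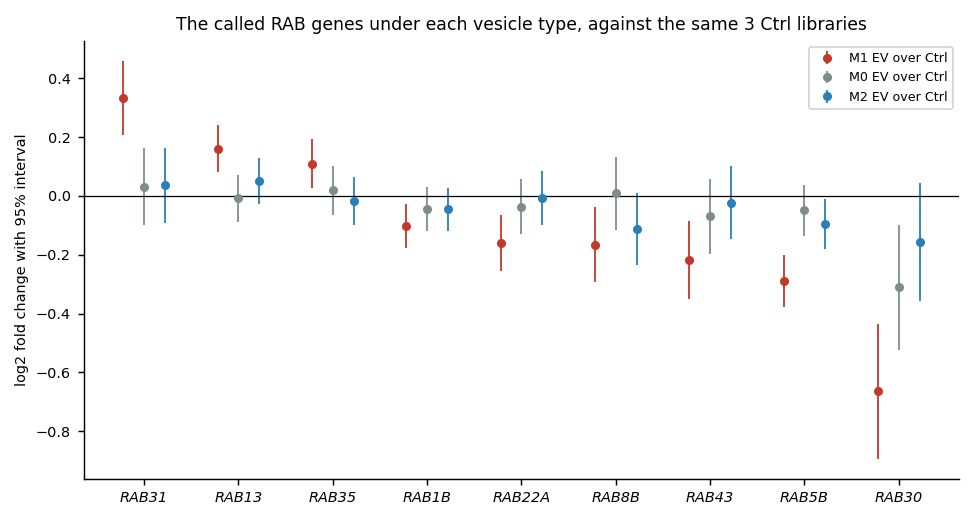
Log2 fold change against Ctrl, with 95% intervals, of the 9 RAB genes called with M1 EV, under M1 EV (red), M0 EV (grey) and M2 EV (blue). The 3 comparisons share the same 3 Ctrl libraries; RAB31 stands at 0.33 with M1 EV, 0.03 with M0 EV and 0.04 with M2 EV, and RAB30 at -0.66, -0.31 and -0.16.

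M1 EV against M0 EV compares the vesicle types directly. Of 46 tested RAB genes 10 were called, 5 higher and 5 lower with M1 EV, which is 21.7% against 25.3% of all tested genes; 14 did not overlap, against 36.6% of all. The comparison shares its M1 EV libraries with the one above. RAB31 had 39.96, 39.2 and 42.4 CPM with M1 EV against 31.1, 33.4 and 34.3 CPM with M0 EV, without overlap (0.30 ± 0.061, adjusted p = 0.000227). RAB5B had 112, 111 and 111 CPM with M1 EV against 135, 137 and 122 CPM with M0 EV, also without overlap (-0.24 ± 0.043, adjusted p = 4.82e-05). RAB13 had 273, 241 and 253 CPM with M1 EV against 234, 227 and 221 CPM with M0 EV (0.17 ± 0.039, adjusted p = 0.00113). RAB13 thus lay higher in every M1 EV library. RAB8A, which carries secretory cargo to the surface, had 109, 108 and 111 CPM with M1 EV against 99.2, 102 and 98.5 CPM with M0 EV (0.13 ± 0.041, adjusted p = 0.0126). These 4 calls were present in all 14 alternatives tried.

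The other 6 calls in M1 EV against M0 EV were each lost without some library. With DESeq2 the calls of RAB27A (adjusted p = 0.142), RAB30 (0.0914), RAB36 (0.138), RAB8B (0.189) and RAB22A (0.177) were lost too. RAB27A had 23.3, 25.2 and 27.5 CPM with M1 EV against 22.4, 20.7 and 21.9 CPM with M0 EV, without overlap, and was 0.22 ± 0.075 higher (adjusted p = 0.0249), lost without M0 EV replicate 2 (0.0928) or M1 EV replicate 3 (0.153). RAB7A had 368, 359 and 374 CPM with M1 EV against 344, 344 and 342 CPM with M0 EV, and its 0.09 ± 0.031 (adjusted p = 0.0215) was lost without M0 EV replicate 3 (0.0574) or M1 EV replicate 3 (0.0708). RAB30 had 10.7, 12.95 and 11.8 CPM with M1 EV against 14.7, 16.7 and 14.4 CPM with M0 EV (-0.35 ± 0.12, adjusted p = 0.0224), lost without M0 EV replicate 2 (0.111) or M1 EV replicate 1 (0.103) or 3 (0.0601). All M1 EV libraries lay on the same side of all M0 EV libraries for these 3 genes. RAB36, a GTPase of organelle positioning, had 16.1, 19.1 and 17.6 CPM with M1 EV against 19.2, 20.5 and 24.2 CPM with M0 EV (-0.27 ± 0.091, adjusted p = 0.0249), and without M0 EV replicate 3 it was -0.16 (0.258), without M1 EV replicate 1 it had 0.133 and without M1 EV replicate 3 it had 0.0647. RAB8B had 34.5, 36.8 and 36.9 CPM with M1 EV against 41.2, 37.96 and 42.8 CPM with M0 EV (-0.17 ± 0.062, adjusted p = 0.0353), lost without M0 EV replicate 1 (0.0896) or 3 (0.189) or any 1 M1 EV library (0.054 to 0.152). RAB22A had 81.6, 80.9 and 76.1 CPM with M1 EV against 85.3, 91.03 and 84.2 CPM with M0 EV (-0.12 ± 0.047, adjusted p = 0.0454), lost in 11 of 14 alternatives, among them without M0 EV replicate 1 (0.059) or 2 (0.234) and without any 1 M1 EV library (0.0521 to 0.224). The groups did not overlap for those 3 genes.

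M1 EV against M2 EV gave 9 called RAB genes of 46, 4 higher and 5 lower with M1 EV, which is 19.6% against 24.6% of all tested genes; 12 did not overlap, against 36.4% of all. RAB31 had 39.96, 39.2 and 42.4 CPM with M1 EV against 31.8, 32.6 and 34.3 CPM with M2 EV, without overlap (0.30 ± 0.06, adjusted p = 0.000214). RAB5B had 112, 111 and 111 CPM with M1 EV against 130.5, 125 and 126 CPM with M2 EV, without overlap (-0.19 ± 0.043, adjusted p = 0.000689). RAB30 had 10.7, 12.95 and 11.8 CPM with M1 EV against 12.1, 18.05 and 19.3 CPM with M2 EV (-0.51 ± 0.11, adjusted p = 0.000589). M2 EV replicate 1 lay inside the M1 EV range of RAB30, so those groups overlapped. These 3 calls were present in all 13 alternatives tried.

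The remaining 6 calls in M1 EV against M2 EV were also lost without some library. All 6 were lost with DESeq2 too (adjusted p = 0.0621 for RAB35 to 0.188 for RAB32). RAB32, a melanosome GTPase, had 31.4, 28.2 and 29.02 CPM with M1 EV against 27.1, 25.8 and 24.98 CPM with M2 EV, without overlap (0.19 ± 0.063, adjusted p = 0.0242), lost without M1 EV replicate 1 (0.166) or M2 EV replicate 2 (0.072) or 3 (0.101). RAB35 had 125, 127 and 125 CPM with M1 EV against 111, 118 and 116 CPM with M2 EV, without overlap (0.13 ± 0.04, adjusted p = 0.0168), lost without M1 EV replicate 2 (0.0567) or M2 EV replicate 1 (0.0701). RAB13 had 273, 241 and 253 CPM with M1 EV against 226, 245 and 239 CPM with M2 EV, which overlapped (0.11 ± 0.039, adjusted p = 0.0341). Without M1 EV replicate 1, its highest library, the RAB13 value was 0.06 (0.315), and the call was lost without M2 EV replicate 1 (0.156) or 3 (0.0563) as well. RAB15, which acts in receptor recycling, had 26.2, 25.5 and 21.4 CPM with M1 EV against 29.8, 28.4 and 26.8 CPM with M2 EV (-0.21 ± 0.075, adjusted p = 0.0339). Its groups did not overlap, and without M1 EV replicate 3, its lowest library, the value was -0.12 (0.286); it was also lost without M2 EV replicate 1 (0.121) or 2 (0.0907). RAB22A had 81.6, 80.9 and 76.1 CPM with M1 EV against 83.3, 90.2 and 91.00 CPM with M2 EV (-0.15 ± 0.046, adjusted p = 0.0112), lost without M1 EV replicate 3 (0.0815) or M2 EV replicate 2 (0.066) or 3 (0.0682). RAB43 had 26.4, 27.8 and 27.5 CPM with M1 EV against 30.8, 30.5 and 32.2 CPM with M2 EV (-0.19 ± 0.064, adjusted p = 0.0215), lost without M1 EV replicate 1 (0.0914) or M2 EV replicate 3 (0.0933). Neither pair of groups overlapped for RAB22A or RAB43.

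The share of each close paralog within its subfamily was taken per kilobase; these subfamilies were chosen after their values were seen and are given as descriptions. RAB5B made up 14.7% ± 0.0603 of the RAB5 trio with M1 EV and 17.8% ± 0.227 in Ctrl (SD, n = 3 each), with 17.7% ± 1.12 under M0 EV and 16.9% ± 0.483 under M2 EV. RAB5C held the most, at 65.8% ± 1.32 with M1 EV and 64.0% ± 0.97 in Ctrl. RAB31 made up 52.1% ± 1.92 of the pair RAB31 and RAB22A with M1 EV and 43.6% ± 2.02 in Ctrl. Under M0 EV it held 44.8% ± 1.54 and under M2 EV 44.4% ± 0.709. Which member of this pair is larger depends on the lengths used. In CPM, RAB22A was the larger both with M1 EV (79.5 against 40.5 for RAB31) and in Ctrl (89.0 against 32.2). RAB8B made up 15.8% ± 0.52 of the RAB8 pair with M1 EV and 18.4% ± 1.33 in Ctrl. RAB27A made up 59.6% ± 1.76 of the RAB27 pair with M1 EV and 55.7% ± 1.54 in Ctrl. The RAB11 pair stood at 20.3% ± 0.436 RAB11A with M1 EV and 20.9% ± 0.486 in Ctrl, and the RAB1 pair at 35.9% ± 1.27 RAB1A with M1 EV and 35.0% ± 0.986 in Ctrl.

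Among transcripts of the proteins that load, switch and read RAB GTPases, more fell than rose with M1 EV. Over 5 lists (GEFs, the TRAPP complex, GAPs, prenylation and extraction, effectors) 142 genes were tested, of which 4 rose and 27 fell against Ctrl. That is 2.82% higher and 19.0% lower, against 14.3% and 13.7% of all tested genes. Over the 13 alternatives 4 to 6 rose and 23 to 30 fell. In M0 EV against Ctrl 0 of the 142 were called by edgeR's quasi-likelihood test (10 at an unadjusted p below 0.05) and in M2 EV against Ctrl 0 as well (9 at an unadjusted p below 0.05), and DESeq2 called 0 in both. The lists are described by their counts and medians only.

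Of 37 tested GEFs, 1 rose and 7 fell (21.6% called against 28.1% of all tested genes, median log2 fold change -0.06). DENND2A averaged 92.6 ± 1.58 CPM with M1 EV and 132 ± 3.11 CPM in Ctrl (-0.51, adjusted p = 6.09e-13). DENND3, the exchange factor of RAB12, averaged 12.2 ± 1.22 CPM with M1 EV and 24.1 ± 0.584 CPM in Ctrl (-0.98, adjusted p = 3.1e-12). DENND5B averaged 57.8 ± 2.46 CPM with M1 EV and 69.7 ± 2.77 CPM in Ctrl (-0.27, adjusted p = 3.7e-05). The 1 GEF that rose, singled out after its value was seen, was ANKRD27, an exchange factor of RAB21 that also binds RAB32 and RAB38, at 106 ± 4.15 CPM with M1 EV and 95.8 ± 1.7 CPM in Ctrl (0.15, adjusted p = 0.00533). In the TRAPP complex, the tether with exchange activity for RAB1 and RAB11, 0 of 14 rose and 3 fell (21.4% called, median -0.02). TRAPPC9 averaged 29.3 ± 2.24 CPM with M1 EV and 40.8 ± 0.712 CPM in Ctrl (-0.48, adjusted p = 1.06e-07). TRAPPC6B and TRAPPC1, both of the TRAPP core, fell by less, at -0.18 (adjusted p = 0.00693) and -0.16 (adjusted p = 0.00762).

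Of 37 tested GAPs, which carry the TBC domain or belong to the RAB3GAP complex, 0 rose and 7 fell (18.9% called against 28.1% of all tested genes, median -0.07). EVI5L averaged 10.8 ± 1.19 CPM with M1 EV and 20.1 ± 1.84 CPM in Ctrl (-0.90, adjusted p = 9.6e-10). TBC1D8 averaged 34.8 ± 2.42 CPM with M1 EV and 51.1 ± 0.97 CPM in Ctrl (-0.55, adjusted p = 1.36e-09). TBC1D2, a GAP of RAB7A, averaged 16.8 ± 0.886 CPM with M1 EV and 24.3 ± 2.71 CPM in Ctrl (-0.54, adjusted p = 1.89e-06). Among 8 genes of prenylation and extraction, which give RAB proteins their lipid anchor and pull them off membranes, 1 fell (12.5%, median -0.01). It was RABAC1, a prenylated RAB acceptor, at 85.6 ± 6.54 CPM with M1 EV and 106 ± 3.21 CPM in Ctrl (-0.30, adjusted p = 3.11e-06). CHM, the escort protein, differed by -0.11 (adjusted p = 0.245) and RABGGTB, a subunit of the geranylgeranyl transferase, by 0.07 (adjusted p = 0.341), and neither was called.

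Of 46 tested effectors, 3 rose and 9 fell (26.1% called, median -0.06). SH3TC2, an effector of RAB11, averaged 37.4 ± 1.49 CPM with M1 EV and 68.1 ± 1.27 CPM in Ctrl (-0.86, adjusted p = 1.54e-15). MICAL3, which acts with RAB6 and RAB8 at exocytic sites, averaged 152 ± 7.75 CPM with M1 EV and 190.4 ± 4.68 CPM in Ctrl (-0.33, adjusted p = 5.7e-08). BICD2, which links RAB6 vesicles to dynein, rose to 91.5 CPM with M1 EV, against 76.8 CPM in Ctrl (0.25, adjusted p = 2.28e-05). The sister family of ARF GTPases, which recruit coats, had 25 tested members, of which 2 rose and 4 fell (24% called, against 28.1% of all tested genes; median -0.06). ARL1, a GTPase of the trans-Golgi, averaged 79.03 ± 3.81 CPM with M1 EV and 87.9 ± 1.76 CPM in Ctrl (-0.15, adjusted p = 0.0135). ARF6, which acts at the plasma membrane, averaged 318 ± 8.08 CPM with M1 EV and 342 ± 4.75 CPM in Ctrl (-0.10, adjusted p = 0.0157). The ARF count ranged from 2 to 6 over the alternatives: it was 2 without Ctrl replicate 2, 3 without Ctrl replicate 3, 3 without M1 EV replicate 3 and 2 with DESeq2.

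**Figure D4:**
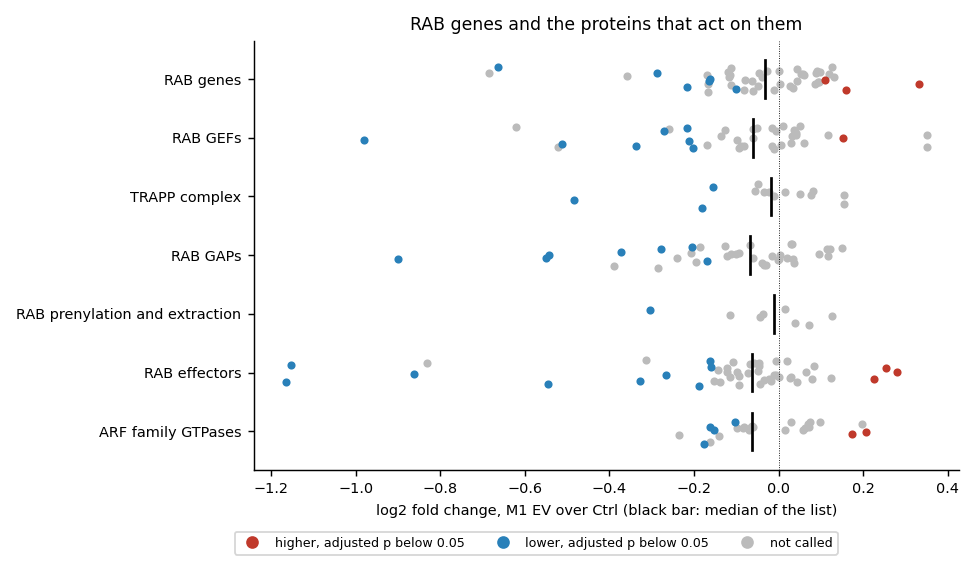
Log2 fold change, M1 EV over Ctrl, of the tested RAB genes and of the genes of 6 related lists; each point is a gene, red called higher, blue called lower at an adjusted p below 0.05, and the black bar is the median of the list. Of the 142 tested genes in the 5 lists of proteins that act on RAB GTPases, 27 are blue and 4 red.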

How the data were processed

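MV3 RNA was sequenced as directional poly(A) libraries on a NovaSeq X Plus, per the labels' protocols. STAR 2.6.1b, HOMER 4.10 and the hg38 build stand in the submitters' processing notes, without their roles. Strand use in counting was not stated there. Besides RAB43, other protein-coding genes overlap RAB36 (RSPH14), RAB15 (CHURC1-FNTB), RAB27A (PIGBOS1) and RAB8A (HSH2D). Their part in the counts of these members was not tested. The authors deposited expected counts of 70507 transcripts, unnormalized (51.3% of non-zero values are not whole), which were rounded here. One column name lacks a digit and was taken as M0 EV replicate 1. RefSeq GRCh38.p14 named 69830 transcripts and GENCODE release 29 another 343; the 334 unnamed held at most 0.062% of counts. The files held 0 other sample columns.

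edgeR 4.0.16 in R 4.3.3 kept 13116 genes with its default filter, scaled them by TMM and fitted a quasi-likelihood model with 1 term per group over all 12 libraries (8 residual degrees of freedom). Tests were 2-sided in 5 comparisons, with Benjamini-Hochberg adjustment over all tested genes within each and calls at an adjusted p below 0.05. Intervals are 95%. Lengths came from GENCODE release 29. Tested on simulated data for M1 EV against Ctrl (13041 genes), it recovered 56% of 50 genes changed 1.2-fold and 84% of 50 changed 1.25-fold, and 12 of 182 calls were false. The simulation changed only well-counted genes, gave all genes a common spread and changed a far smaller share of genes than was called here. These rates therefore do not carry over to members of few counts or to the real calls. DESeq2 1.42.0, RLE scaling, other filters, a replicate block, 2-group fits, summed transcripts and left-out libraries were alternatives. The named genes were the 12 members with the smallest p in M1 EV against Ctrl, 9 fixed members of vesicle release, endosomes and melanosomes, the 3 highest per kilobase, each member called elsewhere (or the smallest p), and the 3 smallest p of each list, of which 1 gene is not reported here. Members and lists were chosen with earlier results of these data known. The 95% intervals use the fitted spread between libraries, and the limits for a count of 0 cover counting error only.

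Same-numbered samples did not deviate together (correlations -0.05 to 0.09). Counts of M0 EV replicates 2 and 3 differed by a chi-square of 1.03 per degree of freedom (p = 0.00249), against 1.24 to 2.33 for the other pairs. Over this many genes a slight excess gives a small p, so the chi-square test cannot tell whether these 2 were separate samples. They were kept as 2 samples, as the labels number them.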

Additional observations from a re-analysis of the deposited data

How the results depend on the processing

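RAB31, RAB5B, RAB30 and RAB13 kept their calls in M1 EV against Ctrl in all 13 alternatives, and the other 5 of the 9 called genes lost theirs in at least 2. DESeq2 called 5 RAB genes in M1 EV against Ctrl, 5 in M1 EV against M0 EV and 3 in M1 EV against M2 EV. Its share of calls over all tested genes was lower too, at 17.9%, 16.4% and 14.4%, against 28.1%, 25.3% and 24.6% with edgeR. Leaving out 1 library gave 5 to 8 in M1 EV against Ctrl (5 without Ctrl replicate 3 and 5 without M1 EV replicate 3), 4 to 10 in M1 EV against M0 EV (6 without M1 EV replicate 1 and 4 without M1 EV replicate 3), 5 to 9 in M1 EV against M2 EV (5 without M2 EV replicate 3), 0 to 1 in M0 EV against Ctrl and 0 in M2 EV against Ctrl. Over all tested genes, the share called without 1 library was 23% to 25% in M1 EV against Ctrl. It was 20.1% to 23.6% in M1 EV against M0 EV and 19.3% to 21.8% in M1 EV against M2 EV. The cause of these moves was not tested, beyond the fewer samples. Leaving out a library left the arm with 2 samples, with the spread pooled over all groups. RAB38 in M1 EV against Ctrl, -0.06 over all libraries, ran between -0.12 and 0.00049 with 1 library left out, and turned without Ctrl replicate 3. Other uncalled differences also moved by over 1.5 times: RAB11A was -0.031 without M1 EV replicate 1 and -0.083 without M1 EV replicate 3, RAB34 ran between -0.058 (without Ctrl replicate 1) and -0.0089 (without Ctrl replicate 3), and RAB28 in M2 EV against Ctrl was 0.13 without M2 EV replicate 3. Of 544 recomputed fold changes of 41 results, 456 kept direction and side of the threshold, 86 lost the call, 1 gained it and 1 turned. With M0 EV replicates 2 and 3 summed, an alternative chosen after seeing the data, 0 RAB genes were called in M0 EV against Ctrl and 9 in M1 EV against M0 EV. Of all tested genes, 0.00754% and 23.1% were called there.

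The replicate numbers did not pair the samples (4 of 12 libraries correlated best with one of their own number), and with the replicate block the counts were 9, 0, 0, 10 and 9 in M1 EV, M0 EV and M2 EV against Ctrl, M1 EV against M0 EV and M1 EV against M2 EV, as without it. Depth limits the members of few counts: 17 of 63 could not be tested, and the SE reached 0.34 on the log2 scale in M1 EV against Ctrl.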
